A study of Mus musculus with 12 samples.

Results

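The genes described here encode the subunits of the mitochondrial respiratory chain and of ATP synthase that lie in the nuclear genome. They were taken by symbol: names that start with Nduf, Uqcr, Atp5, Cox4, Cox5, Cox6, Cox7 or Cox8, plus Sdha, Sdhb, Sdhc and Sdhd, without Ndufa4l2, the Ndufaf assembly factors and pseudogene names. This gave 84 of the 24421 genes in the tables. By their symbols 37 belong to complex I, 4 to complex II, 8 to complex III, 18 to complex IV and 17 to complex V. The genes of the chain that lie in the mitochondrial genome were not measured, as the tables list 0 of them.

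The respiratory chain sits in the inner mitochondrial membrane. Complex I (NADH dehydrogenase) and complex II (succinate dehydrogenase, also an enzyme of the citric acid cycle) pass electrons to ubiquinone, complex III passes them to cytochrome c, and complex IV (cytochrome c oxidase) hands them to oxygen. Complexes I, III and IV pump protons, and complex V, the ATP synthase, uses the proton gradient to make ATP. Transcription factors such as NRF1 and GABP are known to bind near many of these genes, and several subunits of complex IV have isoforms that differ between tissues.

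The cells came from 12 mammary tumours of untreated FVBN mice that carry mMTV-Cre, a Cre recombinase under the mouse mammary tumour virus promoter, which acts mainly in mammary epithelium, and the Cre-activated HER2 Crainbow transgene. In nulliparous mice 5 tumours carried p95 HER2, a truncated form, and 3 carried d16 HER2, a splice form. The other 4 tumours came from multiparous mice, for which the form of HER2 is given as unknown. All p95 tumours and d16 tumours 2 and 3 were metaplastic, d16 tumour 1 and multiparous tumours 2 and 4 were solid nodular, and multiparous tumours 1 and 3 were mixed. Mice were 15 to 21 weeks old, all groups share the Cre and the transgene, and no tumour without them was used. Messenger RNA of single cells was counted at the 3′ end with unique molecular identifiers (UMIs), so a UMI stands for 1 captured transcript whatever its length. Raw CPM means UMIs of a gene divided by all UMIs of the same cells, in the usual CPM unit.

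Of 8486 barcodes, 7366 had at least 200 genes and were kept. Total UMIs per tumour ran from 140348 to 4394398, and tumours shared at most 3 barcodes. The labels do not say whether each tumour came from its own mouse, and p-values therefore reflect only how these samples vary. Cells were grouped into 22 clusters without using the 84 genes and named from marker genes, which left 1 cluster of 475 cells unnamed. Mammary epithelium was checked by luminal markers such as Krt8, Krt18 and Epcam: all 13 were detected, and their summed level per tumour ran from 5844 to 41331 raw CPM. RNA released from broken cells was not removed, so low levels in any class can include it.

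Levels differed widely among the 84 genes. Over all kept cells the highest were Cox4i1, the ubiquitous isoform of a subunit of complex IV, at 961 raw CPM, Atp5b, the catalytic beta subunit of ATP synthase, at 818, and Cox6a1 at 701. At the other end Cox4i2 stood at 0.932, Cox6a2 at 2.11 and Atp5l at 2.71 raw CPM. Cox7b2, Cox8b, Cox8c and Ndufs5 had 0 UMIs, which allows up to 0.122 raw CPM for counting error only. Complex V supplied 31.4% of the UMIs of the 84 genes, complex I 28.4%, complex IV 27.3%, complex III 9.56% and complex II 3.30%. The counts of Atp5l (67 UMIs) and Ndufs5 are uncertain where reads also match processed copies, so the limit given is no bound on the level of Ndufs5. In GRCm38, 36 of the 84 genes overlap another annotated gene, and the strand setting of the authors' counting is not given, so part of the counts of such genes (Ndufs6 with Mrpl36, Ndufb5 with Mrpl47, Cox4i1 with Emc8, Atp5j with Gabpa) could belong to the neighbour. Of the 84 genes, 75 had a UMI in every tumour, 61 passed the low-count filter in all 14 tests below and 6 passed it in none (Atp5l, Cox4i2, Cox7b2, Cox8b, Cox8c and Ndufs5).

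Short stretches upstream of 7 of these genes are shown because most of these genes fell in several cell types and each carries a match to a site of GABP (CCGGAAG) or to the NRF1 motif, a palindrome of 10 bases that stands in capitals in the last 3 sequences. RefSeq promoter windows (GRCm38.p6) were at hand for 67 of the 84 genes, and the 250 bases before the start were searched on both strands. CCGGAAG was found in 12 of 67 (17.9%), against 7.83% of 27025 genes. The NRF1 motif was found in 4 of 67 (5.97%), against 0.877%, and AAGATGG, a core of YY1 sites, in 1 of 67 (1.49%), against 5.18%. The last bases of CCGGAAG can overlap the first bases of AAGATGG, and neither is part of the NRF1 motif. Each sequence below runs 5′ to 3′ on the strand of its gene with the motif, or its reverse complement CTTCCGG, in capitals and 10 bases on each side.
Atp5j (GABP, chr16:84835021-84835047, minus strand): gctgagggacCCGGAAGcacttaccct
Uqcr11 (GABP, chr10:80406871-80406897, minus strand): tctctcctccCCGGAAGtagatgtcaa
Cox6b1 (GABP, chr7:30626126-30626152, minus strand): cctctcgcagCTTCCGGccagtcggaa
Sdhd (GABP, chr9:50603879-50603905, minus strand): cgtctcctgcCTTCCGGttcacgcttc
Ndufa11 (NRF1, chr17:56717692-56717721, plus strand): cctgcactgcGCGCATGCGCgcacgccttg
Atp5g2 (NRF1, chr15:102671070-102671099, minus strand): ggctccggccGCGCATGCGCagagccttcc
Cox6a1 (NRF1, chr5:115349101-115349130, minus strand): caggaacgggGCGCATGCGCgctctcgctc
The base of the motif nearest the start lay 22 bases before it in Cox6b1, 40 in Sdhd, 55 in Atp5j, 60 in Uqcr11, 33 in Atp5g2, 51 in Ndufa11 and 153 in Cox6a1. A match of letters is a description and was not tied to binding or to any value given here. Sdhd and Atp5j differ in their pattern across cell types (given with the tests), although both carry the GABP letters.

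The summed level of the 84 genes was highest in epithelial-like cells. Their share of all UMIs there ran from 1.37% to 2.76% over 12 tumours, with a median of 1.84% and a mean of 1.93% ± 0.438 (SD). In macrophage-like cells it ran from 1.02% to 1.48% with a median of 1.12%, and it was below the epithelial-like cells of the same tumour in 12 of 12 tumours. Fibroblast-like cells ran from 0.731% to 1.31% with a median of 1.002% and were lower in 10 of 10 tumours. Neutrophil-like cells had the lowest median, 0.742% (0.512% to 1.22%), and were lower in 6 of 6 tumours. T or NK-like cells had a median of 1.64% (1.35% to 1.86%) and were lower in 4 of 6 tumours. Dendritic-like cells stood at 1.15% in multiparous tumour 1, 1.66% in p95 tumour 3, 1.53% in d16 tumour 3 and 2.27% in p95 tumour 5, and only in the last were they above the epithelial-like cells. The class pools a cluster led by Ccl17 and one led by Ccr9. The former, 170 cells, stood at 1.44% and below the epithelial-like cells in 4 of 4 tumours (at most 1.62%, in p95 tumour 5). The latter, 25 cells, stood at 3.19%, the highest pooled share of the 22 clusters. Of its 112237 UMIs, 59952 came from 7 cells of p95 tumour 5. Its leading genes mix Siglech and Spib, known from plasmacytoid dendritic cells, with Atp6v0d2, Mmp9 and Ctsk, known from osteoclasts. Pericyte-like cells reached 20 cells in 2 tumours, with 1.17% and 1.32%, and the pooled endothelial-like cells, 109 in all, stood at 1.09%. In the order of the medians the ranges of neighbouring classes overlapped throughout, while the whole epithelial-like range lay above those of fibroblast-like and neutrophil-like cells.

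**Figure D1:**
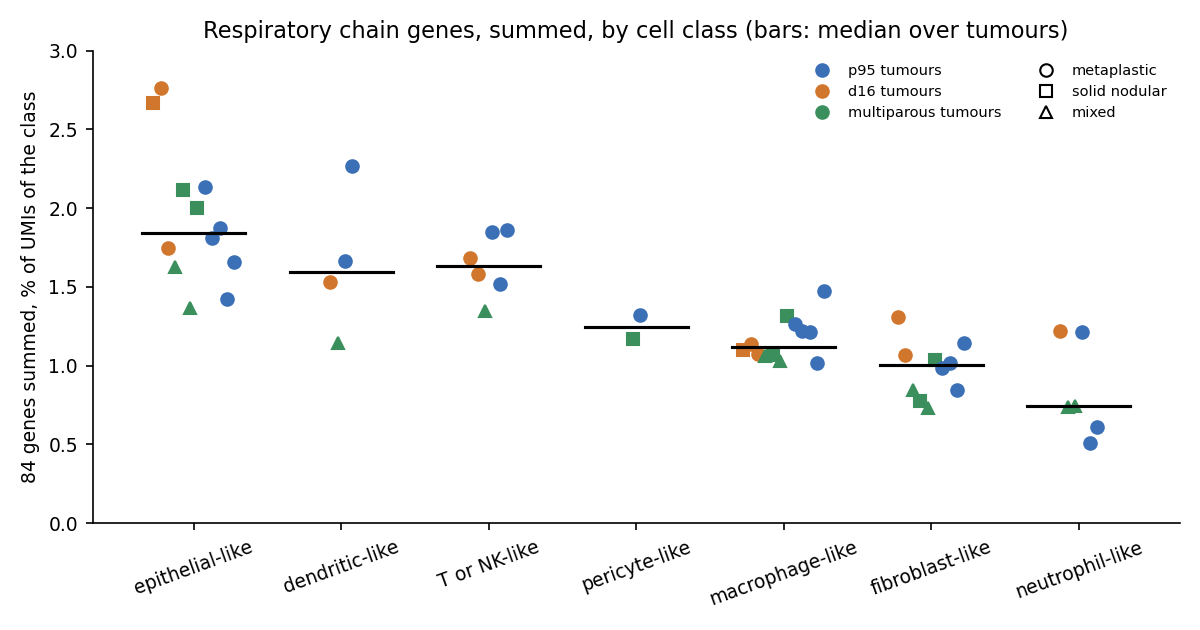
Share of all UMIs that fell on the 84 respiratory chain genes, in percent, by cell class. Each point is 1 tumour with at least 20 cells of the class and each bar is the median, which is 1.84% in epithelial-like and 0.742% in neutrophil-like cells.

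The drop was not shared by all complexes. In macrophage-like cells the summed level relative to epithelial-like cells of the same tumour had a median ratio of 0.578 for complex I, 0.638 for complex III, 0.668 for complex IV and 0.623 for complex V, each lower in 12 of 12 tumours. The ratio for complex II was 1.17, and it was lower in only 2 of 12 tumours. Complex II also stood at 1.36 times the epithelial level in dendritic-like cells and 1.20 times in T or NK-like cells, above it in 4 of 4 and 6 of 6 tumours. In fibroblast-like cells complex II was lower in 10 of 10 tumours with a ratio of 0.701, against 0.529 to 0.557 for the other complexes, and in neutrophil-like cells the ratios were 0.492 for complex I, 0.440 for complex II, 0.358 for complex III, 0.558 for complex IV and 0.348 for complex V. For scale, the summed level of cytosolic ribosomal protein genes had a median ratio of 0.653 in macrophage-like, 0.656 in fibroblast-like, 0.299 in neutrophil-like and 1.34 in T or NK-like cells. Depth differed as well, with 3631 UMIs per cell on average in epithelial-like, 2293 in macrophage-like, 5233 in fibroblast-like, 1075 in T or NK-like and 703 in neutrophil-like cells. The part of depth in these ratios was not tested.

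Gene by gene, each class was compared with the epithelial-like cells of the same tumours by edgeR's quasi-likelihood test on summed counts with the tumour as a block and Benjamini-Hochberg adjustment over all genes tested. CPM without the word raw is TMM-scaled, and a gene is said to rise or fall where the adjusted p is under 0.05. In macrophage-like cells 44 of 74 tested genes fell, against 34.6% of all genes tested, and 3 of 74 rose, against 23.5%. The median log2 fold change of the 74 genes was -0.54, against -0.24 for all genes. In fibroblast-like cells 56 of 76 fell, against 29.6%, and 0 rose, against 22.9%, with a median of -0.69 against -0.17. In neutrophil-like cells 54 of 72 fell, against 36.8%, and 0 rose, against 10.1%, with a median of -1.45 against -1.10. The 54 include Atp5g2, which had 0 UMIs in neutrophil-like cells and passed the low-count filter only through epithelial-like cells. In T or NK-like cells 18 of 75 fell, against 26.1%, and 0 rose, against 14.8%, with a median of -0.44 against -0.23. In dendritic-like cells 2 of 76 fell, against 21.1%, and 1 (Sdhd) rose, against 14.5%, with a median of -0.08 against -0.21. Cox6a2 is not counted as a rise: with 0 UMIs in epithelial-like cells, it passed the low-count filter only through dendritic-like cells. Without Cox6a2 the median was -0.10. The share that fell was thus above the background in macrophage-like, fibroblast-like and neutrophil-like cells, and below it in dendritic-like cells. In T or NK-like cells it was near the background (18 of 75 against 26.1%). In the 3 classes in which 0 genes rose, 0 were higher at an unadjusted p under 0.05 and 0 rose in DESeq2. Single tumours decided part of the counts: in neutrophil-like cells 28 fell without multiparous tumour 3 or without p95 tumour 5, 31 without d16 tumour 2, 32 without p95 tumour 3 and 34 without multiparous tumour 1, and in dendritic-like cells 2 genes passed without p95 tumour 3 and 7 without p95 tumour 5. Scaling by RLE in place of TMM moved the median of all genes in macrophage-like cells to -0.45 and that of the 74 genes to -0.75, with 56 that fell and 1 that rose.

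**Figure D2:**
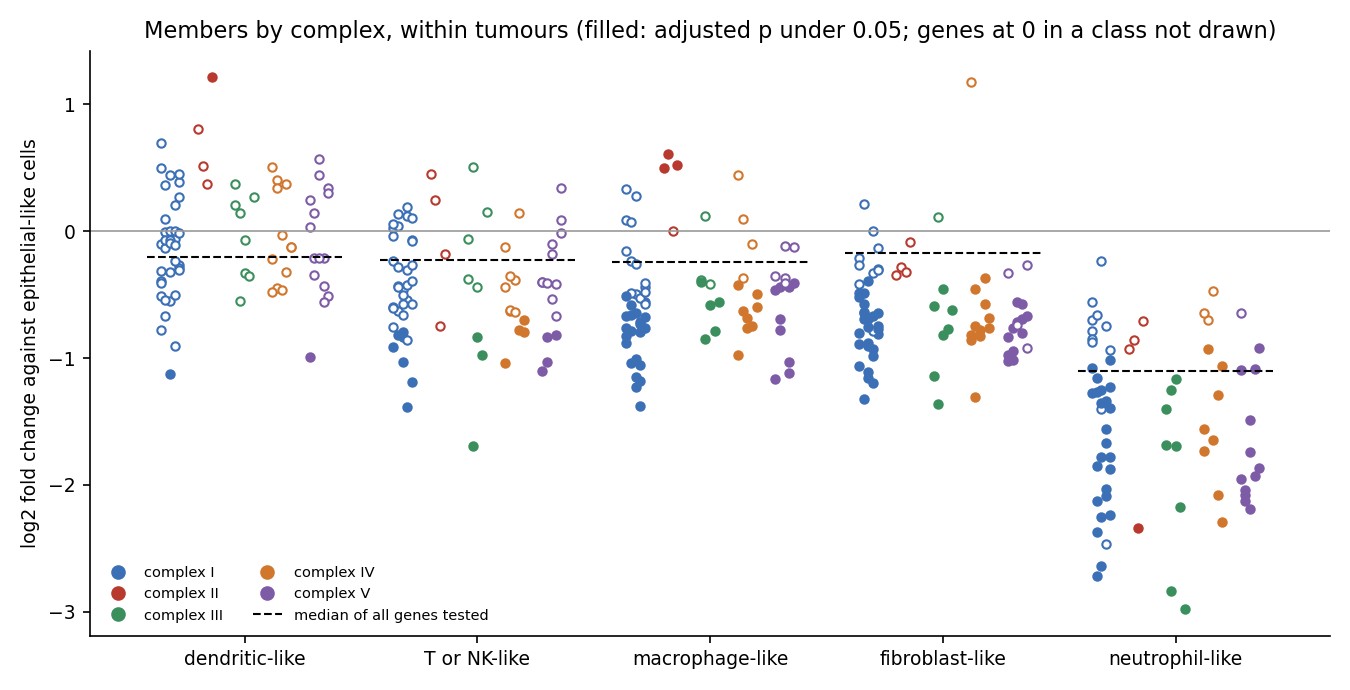
Log2 fold change of each tested gene against the epithelial-like cells of the same tumours, by cell class and complex. Filled points have an adjusted p under 0.05 and dashed lines mark the median of all genes tested. Atp5g2 in neutrophil-like and Cox6a2 in dendritic-like cells are not drawn, as each has 0 UMIs in a class. The red points of complex II lie above the dashed line in macrophage-like and dendritic-like cells, while most other points lie below it in macrophage-like, fibroblast-like and neutrophil-like cells.

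Complex I carries electrons from NADH and is the largest of the 5 complexes. Of its tested genes 22 of 36 fell in macrophage-like, 26 of 36 in fibroblast-like, 24 of 35 in neutrophil-like, 7 of 36 in T or NK-like and 1 of 36 in dendritic-like cells. Ndufb9, an accessory subunit of the membrane arm, stood at 0 to 146 CPM (median 114) in macrophage-like and 215 to 503 CPM (median 252) in epithelial-like cells, so the groups did not overlap. Its log2 fold change was -1.38 ± 0.24 (SE, edgeR adjusted p = 2.50e-05). Ndufa11, an accessory subunit, ran from 33.6 to 182 CPM (median 97.9) against 144 to 362 CPM (median 210), lower in 12 of 12 tumours, with a log2 fold change of -1.15 ± 0.19 (adjusted p = 1.07e-05 in edgeR). In fibroblast-like cells Ndufb8, another membrane arm subunit, ran from 75.7 to 154 CPM (median 86.8) against 149 to 330 CPM (median 202). It was lower in 10 of 10 tumours, by -1.16 ± 0.15 on the log2 scale (adjusted p = 4.58e-06 in edgeR). Ndufb9 fell there as well (-0.99 ± 0.14) and so did Ndufs6 (-0.89 ± 0.14), a subunit of the peripheral arm whose locus overlaps Mrpl36. In T or NK-like cells Ndufb9 (-1.38 ± 0.32) and Ndufc1 (-1.19 ± 0.38) fell in 6 of 6 tumours.

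Ndufa4 carries a complex I name and was later assigned to complex IV. It was 1 of 2 genes that fell in all 5 comparisons, with Atp5j. In macrophage-like cells it ran from 34.7 to 258 CPM (median 153) and in epithelial-like cells from 189 to 675 CPM (median 391). The ranges over tumours overlapped at their edge, and it was lower in 12 of 12 tumours (-1.23 ± 0.21, edgeR adjusted p = 2.02e-05). In dendritic-like cells it stood at 76.0, 126, 140.1 and 293 CPM in multiparous tumour 1, p95 tumour 3, d16 tumour 3 and p95 tumour 5, against 244, 404, 425 and 294 CPM in the epithelial-like cells of the same tumours. It was lower in 4 of 4, but by less than 1 CPM in p95 tumour 5 (-1.12 ± 0.32, adjusted p = 0.00490 in edgeR). In neutrophil-like cells its log2 fold change was -2.64 ± 0.48, and in fibroblast-like cells -1.11 ± 0.16.

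Complex II holds 4 genes: Sdha, the flavoprotein that oxidises succinate, Sdhb, its iron-sulphur partner, and the membrane anchors Sdhc and Sdhd. In macrophage-like cells Sdhb ran from 66.2 to 248 CPM (median 171) against 41.3 to 138 CPM (median 116) in epithelial-like cells, higher in 11 of 12 tumours. Its log2 fold change was 0.61 ± 0.19 (adjusted p = 0.00747 in edgeR). Sdhd ran from 126 to 220.4 CPM (median 187) against 94.9 to 304 CPM (median 113), higher in 10 of 12 tumours (0.52 ± 0.18, edgeR adjusted p = 0.0155). Sdha ran from 64.6 to 347 CPM (median 164) against 68.8 to 170 CPM (median 109), higher in 8 of 12 tumours (0.50 ± 0.20, edgeR adjusted p = 0.0312). The ranges of all 3 overlapped between the classes. Sdhc did not pass (0.00 ± 0.19, adjusted p = 0.998 in edgeR), so the anchors Sdhc and Sdhd differed in their fold change, a difference that was not tested. With RLE factors Sdhd stood at 0.34 (edgeR adjusted p = 0.0736) and Sdha at 0.32 (edgeR adjusted p = 0.177), and without d16 tumour 3 Sdhd stood at 0.41 (edgeR adjusted p = 0.0597). Sdha also lost its call in DESeq2 (adjusted p = 0.190), without the low-count filter (0.0685), at 500 genes per cell (0.194) and without any 1 of 5 tumours (multiparous 1, p95 3, p95 4, p95 5 or d16 3, edgeR adjusted p 0.0533 to 0.116).

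Sdhd was the 1 gene of complex II that rose in dendritic-like cells. It stood at 282 CPM in multiparous tumour 1, 176 in p95 tumour 3, 220.1 in d16 tumour 3 and 367 in p95 tumour 5, and in the epithelial-like cells of the same tumours at 135, 114, 104 and 97.6 CPM. All 4 dendritic values lay above all 4 epithelial ones (log2 fold change 1.21 ± 0.28, edgeR adjusted p = 0.000779, n = 4). Sdha (0.81 ± 0.33, adjusted p = 0.0535 in edgeR), Sdhb (0.51 ± 0.31) and Sdhc (0.38 ± 0.28) did not pass there. In neutrophil-like cells only Sdhc of complex II fell (-2.34 ± 0.54), lower in 6 of 6 tumours, and no complex II gene passed in fibroblast-like or T or NK-like cells. The smallest p was that of Sdha in fibroblast-like cells (-0.34 ± 0.14, edgeR adjusted p = 0.0513) and of Sdhc in T or NK-like cells (-0.75 ± 0.32, edgeR adjusted p = 0.0504).

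Complex III, which takes electrons from ubiquinol, had 5 of 8 genes lower in macrophage-like, 7 of 8 in fibroblast-like, 8 of 8 in neutrophil-like, 3 of 8 in T or NK-like and 0 of 8 in dendritic-like cells. Uqcr11, its smallest accessory subunit, ran from 30.5 to 177 CPM (median 109) in T or NK-like and from 272 to 547 CPM (median 363) in epithelial-like cells of the same 6 tumours. The groups did not overlap (log2 fold change -1.69 ± 0.32, edgeR adjusted p = 8.81e-07). In neutrophil-like cells Uqcr11 ran from 0 to 132 CPM (median 32.1), against 222 to 519 CPM (median 368), with a log2 fold change of -2.83 ± 0.50 (adjusted p = 2.04e-07 in edgeR). In fibroblast-like cells it stood at -1.36 ± 0.19, lower in 10 of 10 tumours. Uqcrfs1, the Rieske iron-sulphur protein, fell in fibroblast-like cells (-1.14 ± 0.20). Uqcrh, the hinge protein, took another course, with 621 raw CPM in pooled T or NK-like cells against 284 in epithelial-like cells. Per tumour it ran from 401 to 775 raw CPM in T or NK-like cells, above the epithelial-like cells in 6 of 6 tumours before scaling and in 5 of 6 after it (0.51 ± 0.27, edgeR adjusted p = 0.121).

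Complex IV reduces oxygen. Of its tested genes 8 of 12 fell in macrophage-like, 11 of 12 in fibroblast-like, 8 of 11 in neutrophil-like and 4 of 12 in T or NK-like cells. Cox5a, a subunit on the matrix side, ran from 103 to 225 CPM (median 144) in fibroblast-like cells and from 220.1 to 530.0 CPM (median 375) in epithelial-like cells. It was lower in 10 of 10 tumours with ranges that overlapped only at the edge (-1.30 ± 0.17, adjusted p = 5.59e-06 in edgeR). The same gene did not pass in macrophage-like cells (0.09 ± 0.19). Cox7c, a small membrane subunit, ran from 34.7 to 270.1 CPM (median 170) in macrophage-like and 164 to 651 CPM (median 323) in epithelial-like cells, lower in 12 of 12 tumours (-0.97 ± 0.19, edgeR adjusted p = 6.53e-05). Cox4i1 ran from 439 to 982 CPM (median 675) in T or NK-like cells, below 1169 to 1922 CPM (median 1280) in epithelial-like cells, with no overlap (-1.04 ± 0.26, adjusted p = 0.000409 in edgeR).

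Complex V makes ATP. Of its tested genes 9 of 14 fell in macrophage-like, 12 of 16 in fibroblast-like, 13 of 14 in neutrophil-like, 4 of 15 in T or NK-like and 1 of 15 in dendritic-like cells. The 13 include Atp5g2, which passed the low-count filter there only through epithelial-like cells. The 4 of 15 is near the share of all genes that fell in T or NK-like cells, 26.1%. Atp5g3, which encodes the c subunit of the rotor ring, ran from 243 to 499.6 CPM (median 352) in macrophage-like and from 483 to 1234 CPM (median 677) in epithelial-like cells, lower in 12 of 12 tumours (-1.12 ± 0.17, edgeR adjusted p = 3.04e-06). Atp5j, a stalk subunit whose locus overlaps Gabpa, ran from 69.3 to 203 CPM (median 158) against 248 to 481 CPM (median 325), with no overlap (-1.16 ± 0.18, edgeR adjusted p = 4.03e-06). In neutrophil-like cells Atp5b ran from 70.8 to 484 CPM (median 268) against 944 to 1356 CPM (median 1196) in the same 6 tumours, again with no overlap (-2.13 ± 0.39, edgeR adjusted p = 4.41e-07). Atp5g3 (-2.19 ± 0.40) and the delta subunit gene Atp5d (-1.93 ± 0.39) fell there as well, and Atp5g2, a further c subunit gene, had 0 UMIs in neutrophil-like cells, for which no fold is given. Without it the median of the tested genes in neutrophil-like cells was -1.41. Atp5e, the epsilon subunit, was among the genes that did not pass in macrophage-like cells (-0.13 ± 0.19, edgeR adjusted p = 0.595).

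Further subunits are given by their pooled levels. Ndufv1, which binds NADH, stood at 94.8 raw CPM in epithelial-like, 50.7 in macrophage-like, 44.5 in fibroblast-like and 32.2 in neutrophil-like cells, and fell in these 3 classes. Uqcrb of complex III (108 in epithelial-like, 56.8 in macrophage-like, 44.5 in fibroblast-like and 36.9 raw CPM in neutrophil-like cells) fell in the same 3, as did Cox6c of complex IV and Atp5a1, the alpha subunit of ATP synthase. Atp5a1 stood at 616, 404, 299.9 and 166 raw CPM in that order, and at 613 in dendritic-like and 576 in T or NK-like cells, where it was not called. Ndufs1, the largest iron-sulphur subunit of complex I, fell only in fibroblast-like cells, with 36.4 raw CPM against 64.7 in epithelial-like and 75.1 in T or NK-like cells. This is a statement about calls, and differences between classes were not tested.

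Of the 84 genes, 13 fell in 4 of the 5 comparisons, among them Uqcrc1, a core protein of complex III, Cox4i1, Cox6a1, Cox6b1 and Atp5b. Another 22 fell in 3, 14 in 2 and 18 in 1, and 15 fell in none, 7 of which passed the low-count filter in none of these 5 comparisons. The 18 include Atp5g2, which fell only in neutrophil-like cells, where it had 0 UMIs. The comparisons share the epithelial-like cells of the tumours, so a low value in several of them is not independent. How many of all genes fell in as many comparisons is not given here, so these counts are a description only. By pooled level, 40 genes were highest in epithelial-like, 21 in dendritic-like, 16 in T or NK-like and 3 in pericyte-like cells.

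Genes around the chain gave the following counts in the same tests, to be read against the shares of all genes that fell (34.6% in macrophage-like, 29.6% in fibroblast-like, 36.8% in neutrophil-like, 26.1% in T or NK-like and 21.1% in dendritic-like cells). The 5 of 16 citric acid cycle and 22 of 67 mitochondrial ribosome genes that fell in macrophage-like cells are near that background. Counts of genes that rose are to be read against the shares of all genes that rose. These were 23.5% in macrophage-like, 22.9% in fibroblast-like, 10.1% in neutrophil-like, 14.8% in T or NK-like and 14.5% in dendritic-like cells. Of citric acid cycle enzymes, 5 of 16 fell and 1 rose in macrophage-like, 11 of 16 fell and 1 rose in fibroblast-like, and 11 of 15 fell and 0 rose in neutrophil-like cells. Of mitochondrial ribosome genes, 22 of 67 fell and 0 rose in macrophage-like and 39 of 72 fell and 1 rose in fibroblast-like cells. Of assembly factors, 9 of 22 fell and 4 rose in macrophage-like cells. In dendritic-like cells 4 of 28 rose, near the share of all genes, and 0 fell. Glycolysis genes fell in 6 of 13 cases in macrophage-like, 10 of 13 in fibroblast-like, 5 of 12 in T or NK-like and 6 of 12 in dendritic-like cells. Cytosolic ribosomal protein genes fell in 47 of 77 cases in macrophage-like and 75 of 77 in neutrophil-like cells. In T or NK-like cells 8 of 77 rose and 2 fell, both under the shares of all genes. Of carriers such as the ATP/ADP exchangers, 10 of 11 fell in fibroblast-like, 8 of 11 in neutrophil-like, 5 of 11 in T or NK-like and 4 of 11 in macrophage-like cells. Of regulators of mitochondrial genes such as Nrf1, Gabpa and Tfam, 4 of 8 fell in macrophage-like and 1 of 10 in fibroblast-like cells, where 2 rose.

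Tissue isoforms of complex IV showed levels that are lost in averages over the tumour. Cox4i2, the isoform known from lung and smooth muscle, had 23 UMIs in all, of which 14 (60.9%) lay in the pericyte-like cluster led by Rgs5. Its level there was 31.9 raw CPM (exact Poisson 95% interval 17.5 to 53.6, counting error only), with UMIs in 7 of 12 tumours and 7 of the 14 from d16 tumour 3, without which it was 17.4. It made up 3.74% of the UMIs of Cox4i1 and Cox4i2 together in that cluster. Ndufa4l2, a paralogue of Ndufa4 that is not among the 84 genes, had 42 of its 120 UMIs in the same cluster.

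Cox6a2, the isoform of heart and skeletal muscle, had 44 of its 52 UMIs (84.6%) in a dendritic-like cluster of 25 cells led by Ccr9, Siglech and Spib, genes known from plasmacytoid dendritic cells. Atp6v0d2, Mmp9 and Ctsk, known from osteoclasts, were also among its 10 leading genes. The level there was 392 raw CPM (285 to 526.3), and Cox6a2 made up 23.7% of the UMIs of Cox6a1 and Cox6a2. In the 4 tumours of the dendritic-like comparison it had 43 UMIs of 558080 in dendritic-like and 0 of 5429882 in epithelial-like cells. This is at least 139-fold higher when 0 is set to a floor of 3 counts for the pooled epithelial-like cells. It passed the low-count filter only through the dendritic-like cells, so its call is given as a description with no p. The UMIs came unevenly, with 2 in multiparous tumour 1, 5 in p95 tumour 3, 36 in d16 tumour 3 and 0 in p95 tumour 5. Without d16 tumour 3 the bound was 21.98-fold, on 7 UMIs. Cox6a2 lies at chromosome 7, 128205435 to 128206387 (GRCm38), within the locus of the integrin gene Itgad, which had 4 UMIs in all cells. The 8 skeletal muscle markers, such as Acta1 and Ckm, had 12 UMIs in that cluster (107 raw CPM, against 64.3 over all cells).

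Cox7a1, a second muscle isoform, had 47 of its 106 UMIs (44.3%) in an epithelial-like cluster led by Dcpp1 and Gpx2, at 17.4 raw CPM (12.8 to 23.1), with 27 from multiparous tumour 2. Muscle markers stood at 2.59 raw CPM in those cells. Cox6b2, known from testis, had 81 of its 305 UMIs (26.6%) in the fibroblast-like cluster led by C1qtnf3 and Fmod, at 25.1 raw CPM, and lay at 26.5 in the dendritic-like cluster led by Ccl17. Multiparous tumour 2 and d16 tumour 3 gave 22 each of the 81. It was not particular to these clusters. Pericyte-like cells stood at 20.5 raw CPM, and the epithelial-like cluster led by Stmn2 also held UMIs, 20 of them in p95 tumour 3. Cox6b2 did not pass in fibroblast-like cells as a whole (log2 fold change 1.18 ± 0.61, edgeR adjusted p = 0.115). Cox8b had 0 UMIs, beside 12256 of Cox8a.

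**Figure D3:**
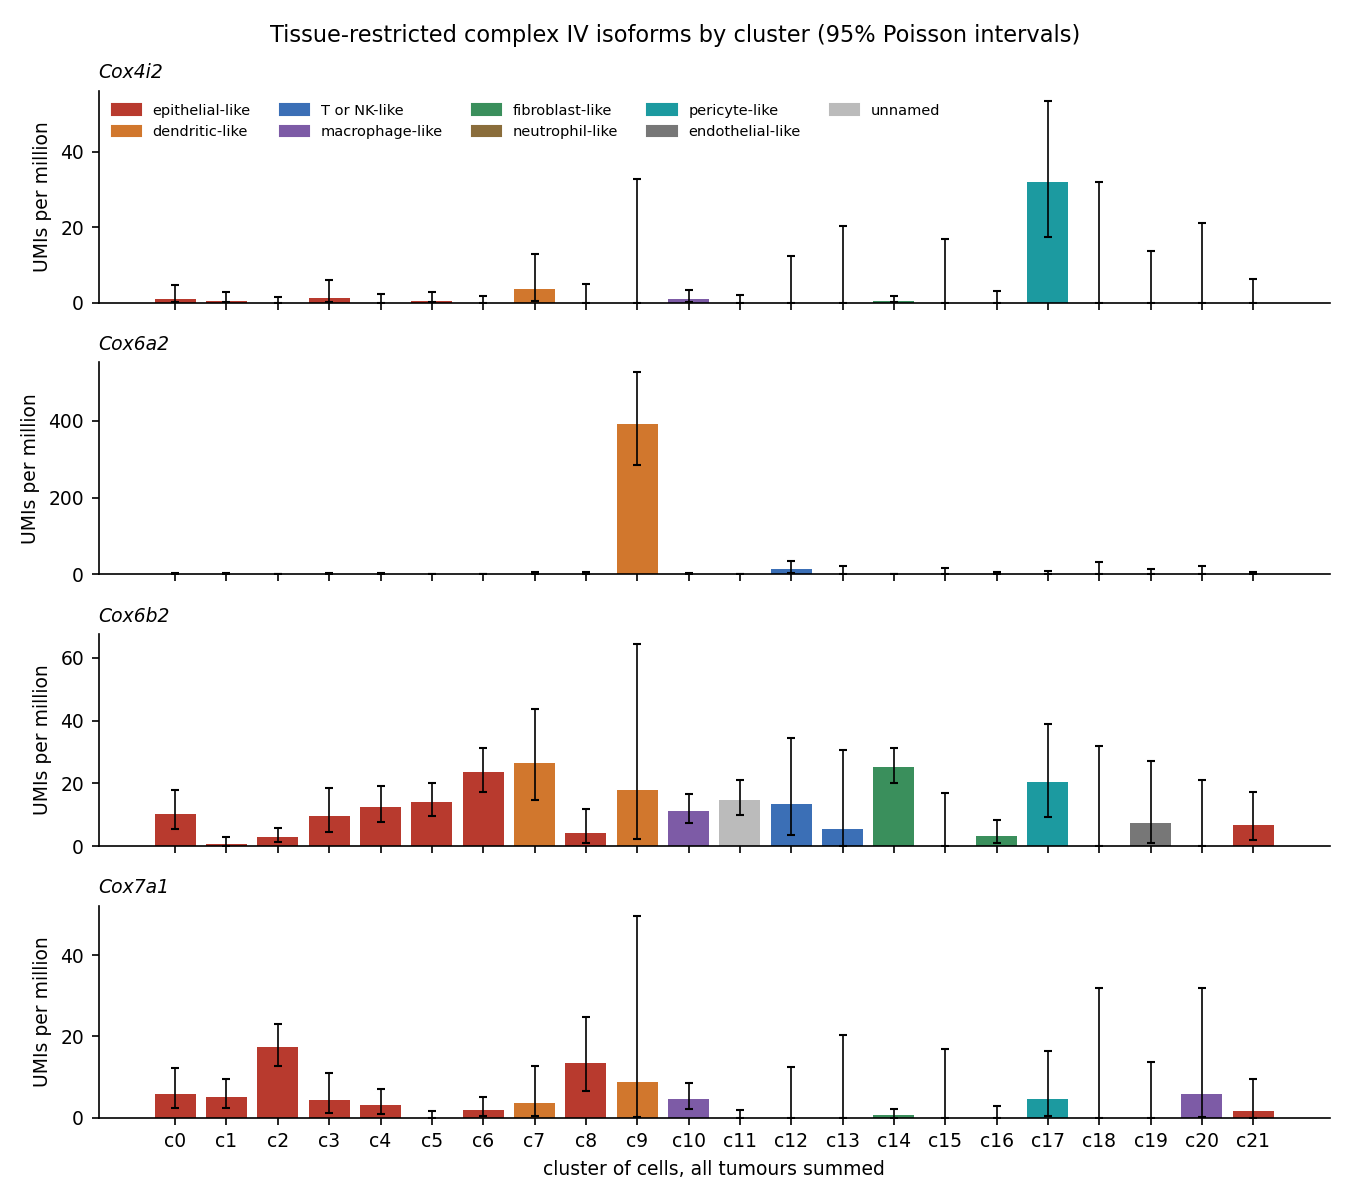
Levels of the tissue isoforms Cox4i2, Cox6a2, Cox7a1 and Cox6b2 in raw CPM, by cell cluster, with exact Poisson 95% intervals that cover counting error only. Each isoform peaks in another cluster, Cox6a2 at 392 raw CPM, while Cox6b2 has similar levels in several clusters.

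Epithelial-like cells were not alike in the level of the 84 genes. Among clusters of this class the pooled share of UMIs was 2.93% in the cluster led by Comp and Fetub (694 cells) and 2.57% in the one led by Dcpp1 and Gpx2 (477 cells), against 1.42% to 1.99% in the others. Gpx2, Comp and Tesc were among the 10 leading genes of both, so the short names used below do not set them apart. These clusters were built from the same cells, so what follows is a description without a test. In the 4 tumours with at least 20 cells of the Gpx2 cluster, 65 of 77 genes were higher there than in the remaining epithelial-like cells of every tumour, against 21.6% of all genes, and 0 were lower in every tumour, against 6.85%. The median log2 ratio of means was 0.69 for the 77 genes and 0.15 for all. Ndufv2, a core subunit of complex I, ran from 277 to 424 raw CPM in that cluster and from 91.7 to 189 in the rest. Ndufc2 ran from 241 to 441 against 102 to 164 and Sdha from 166 to 288 against 94.8 to 119, with no overlap. Sdhb went the other way, at 44.8 to 100.7 against 62.0 to 143, higher in only 1 of 4 tumours. The Comp cluster had at least 20 cells in p95 tumour 1, d16 tumours 1 and 2 and multiparous tumour 2. There 15 of 77 genes were higher in all 4 tumours, against 6.35%, and 1 was lower, against 5.4%. The median log2 ratio of means was 0.22 for the 77 genes and 0.03 for all, so the 77 genes stood out less than in the Gpx2 cluster. The pooled shares give the other order, and the tumours behind the ratios differ in part. The Comp cluster had 1065 UMIs per cell, against 5673 in the Gpx2 cluster.

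How much of each tumour these clusters made up differed widely. Among epithelial-like cells, their combined part was 74.6% in d16 tumour 1, 66.2% in multiparous tumour 2, 60.7% in d16 tumour 2 and 39.8% in p95 tumour 1. It was 0 to 12.96% in the other 8 tumours. With these clusters left out, the share of UMIs on the 84 genes in the remaining epithelial-like cells still ran from 1.31% (multiparous tumour 3) to 2.21% (d16 tumour 1).

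In whole tumours, where fewer cells of a type and less RNA per cell cannot be told apart, the summed share of the 84 genes was 1.22%, 1.87%, 1.16% and 1.72% in multiparous tumours 1 to 4. The p95 tumours 1 to 5 gave 1.85%, 1.57%, 1.56%, 1.18% and 1.52%. The d16 tumours 1 to 3 gave 2.51%, 2.37% and 1.39%. The highest were d16 tumours 1 and 2, and every group overlapped the others. Solid nodular tumours had 2.03% ± 0.416 (SD, n = 3), metaplastic tumours 1.63% ± 0.381 (n = 7). Epithelial-like cells made up 75.2% of cells in solid nodular and 47.6% in metaplastic tumours. The share in epithelial-like cells was 2.26% ± 0.357 against 1.92% ± 0.431, and in macrophage-like cells 1.16% ± 0.135 against 1.20% ± 0.150. The tables come in 2 layouts, 4 with intact gene names and 8 in which 27 names had turned into dates, and all multiparous tumours have the latter. The summed share in whole tumours was 2.07% ± 0.441 in the intact and 1.45% ± 0.264 in the date-like layout, so layout moves with the group difference. Depth moves with layout: the median UMIs per kept cell ran from 449 to 1196 in the intact and from 1728 to 4536 in the date-like tables.

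**Figure D4:**
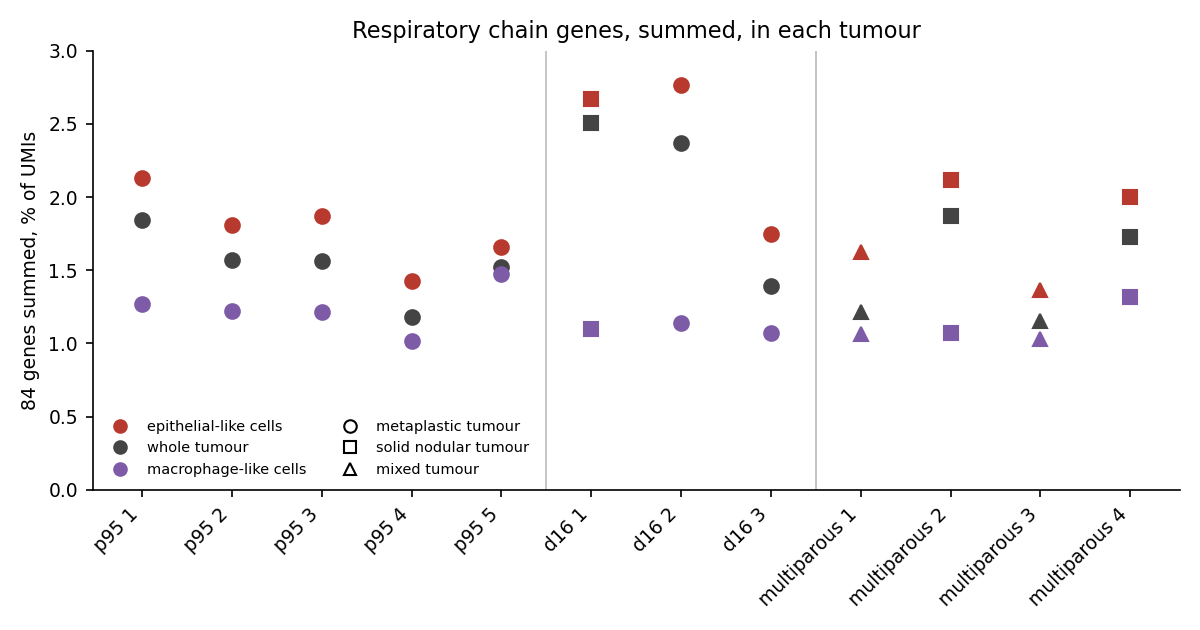
Share of UMIs on the 84 genes, in percent, in each tumour for whole tumours, epithelial-like and macrophage-like cells. Marker shapes give the growth pattern. Epithelial-like cells lie above macrophage-like cells in all 12 tumours, and the highest whole-tumour values, 2.51% and 2.37%, are d16 tumours 1 and 2.

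Multiparous (n = 4) and nulliparous (n = 8) tumours were compared first. The form of HER2 is unknown in the former, so parity and HER2 form cannot be told apart. Growth pattern moves with parity as well. No multiparous tumour was metaplastic, and of the nulliparous tumours only d16 tumour 1 was not. None of the 84 genes passed in edgeR in whole tumours, epithelial-like or macrophage-like cells (0 of 77, 0 of 77 and 0 of 61), where 0.0801%, 0.0% and 0.0312% of all genes passed. At an unadjusted p under 0.05 there were 2, 4 and 1, against 7.61%, 4.8% and 8.88% of all genes, and DESeq2 passed 1, 0 and 0. The share of all genes that DESeq2 passed is not given here. The median log2 fold change was -0.21 in whole tumours (65 of 77 genes lower), against 0.02 for all genes, -0.22 in epithelial-like cells (61 of 77 lower), against 0.02, and -0.14 in macrophage-like cells (48 of 61 lower), against 0.01. With the file layout as a covariate the medians of the 77 genes became 0.04 for whole tumours and 0.03 for epithelial-like cells. The direction thus did not hold in that model, which cannot tell layout from depth. By complex, 8 of 8 genes of complex III, 12 of 13 of complex IV and 30 of 36 of complex I were lower in whole tumours, against 2 of 4 of complex II. Citric acid cycle genes had a median of 0.07 and glycolysis genes of 0.24, with 0 of 16 and 0 of 14 passing in edgeR.

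Ndufa1, a small membrane subunit of complex I on the X chromosome (37187588 to 37191163, GRCm38), had the smallest p of the 77 genes in whole tumours. It stood at 93.5, 104, 70.9 and 106 CPM in multiparous tumours 1 to 4, against 104 to 250.5 CPM (median 165) in nulliparous tumours. Only d16 tumour 1, at 104 CPM, fell in the range of the multiparous tumours. Its log2 fold change was -0.90 ± 0.24 with an adjusted p of 0.274 in edgeR, 0.0182 in DESeq2 and 0.482 in edgeR with layout as a covariate (log2 fold change -0.71). The fold change was -0.85 ± 0.28 in epithelial-like and -0.92 ± 0.36 in macrophage-like cells, without passing in either. Atp5sl stood at 7.82, 8.17, 7.51 and 6.18 CPM in multiparous tumours 1 to 4 and at 8.44 to 20.3 CPM (median 14.02) in nulliparous tumours. It was the 1 of 77 genes whose groups did not overlap in whole tumours, against 1.16% of all genes, and among tested genes there was none in epithelial-like and macrophage-like cells, against 0.51% and 0.966% (-0.92 ± 0.26, edgeR adjusted p = 0.287). Atp5sl came in by its symbol, and its product is now counted among the assembly factors of complex I. Ndufa4 ran from 154 to 326 CPM against 235 to 606 CPM (-0.62 ± 0.29, edgeR adjusted p = 0.662).

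Solid nodular tumours (n = 3) were compared with metaplastic tumours (n = 7). Of the solid nodular tumours only d16 tumour 1 is nulliparous, while all metaplastic tumours are, so growth pattern and parity cannot be fully told apart. The parity and growth pattern comparisons share multiparous tumours 2 and 4, so their results are not independent. Again none of the 84 genes passed in edgeR in whole tumours, epithelial-like or macrophage-like cells (0 of 77, 0 of 77 and 0 of 65), where 0.0%, 0.229% and 0.0242% of all genes passed. At an unadjusted p under 0.05 there were 14, 13 and 1, against 19.6%, 18.1% and 8.95% of all genes, and DESeq2 passed 1, 1 and 0. The share of all genes that DESeq2 passed is not given here. The median was 0.22 in whole tumours (55 of 77 higher), against -0.02 for all genes, 0.12 in epithelial-like cells (45 of 77 higher), against 0.02, and -0.08 in macrophage-like cells (40 of 65 lower), against -0.02. The last was -0.28 without multiparous tumour 4. In whole tumours the median was 0.42 for complex II and 0.35 for complex V, beside 0.47 for citric acid cycle, 0.67 for glycolysis and 0.34 for mitochondrial ribosome genes, so genes outside the chain lay higher in these tumours as well. The groups did not overlap for 4 genes in whole tumours (Atp5f1, Ndufa1, Ndufab1 and Sdhc; 7.14% of all genes) and for 6 in epithelial-like cells (Atp5sl, Ndufa1, Ndufc2, Sdhc, Sdhd and Uqcrh; 6.01% of all genes). In macrophage-like cells Ndufs4 was the only such gene among the 65 tested, against 3.3% of all genes. Genes under the low-count filter were left out of these counts, such as Ndufs4 for parity and Cox6b2 for growth pattern in macrophage-like cells, whose groups did not overlap either.

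Sdhd had the smallest p in epithelial-like cells. It stood at 309 CPM in d16 tumour 1, 150 in multiparous tumour 2 and 171 in multiparous tumour 4, and at 100.3 to 118 CPM (median 105) in the metaplastic tumours. All solid nodular values lay above all metaplastic ones (log2 fold change 0.94 ± 0.24, adjusted p = 0.0935 in edgeR, 0.0263 in DESeq2 and 0.0457 in edgeR with layout as a covariate). Without the tumours of lowest total count, p95 tumour 1 and d16 tumour 1, it was 0.60 with an edgeR adjusted p of 0.236. Ndufc2, a membrane subunit of complex I, stood at 327, 215 and 204 CPM against 81.0 to 195 CPM (median 146), with no overlap (0.81 ± 0.26, edgeR adjusted p = 0.137). Uqcrh lay lower in solid nodular tumours, at 211, 198 and 213 CPM against 216 to 459 CPM (median 375), with no overlap (-0.77 ± 0.28, edgeR adjusted p = 0.172). In whole tumours Ndufa1 stood at 104, 105 and 107 CPM against 134 to 251 CPM (median 177), with no overlap (-0.81 ± 0.25, adjusted p = 0.130 in edgeR and 0.0486 in DESeq2). In macrophage-like cells its log2 fold change was -1.41 ± 0.45 (edgeR adjusted p = 0.286). When layout entered the model, Atp5c1, Ndufc2 and Ndufs3 passed in whole tumours, with log2 fold changes of 0.81, 0.81 and 0.98. The share of all genes that passed in that model is not given here. These calls, and that of Sdhd with layout, are therefore a description only.

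**Figure D5:**
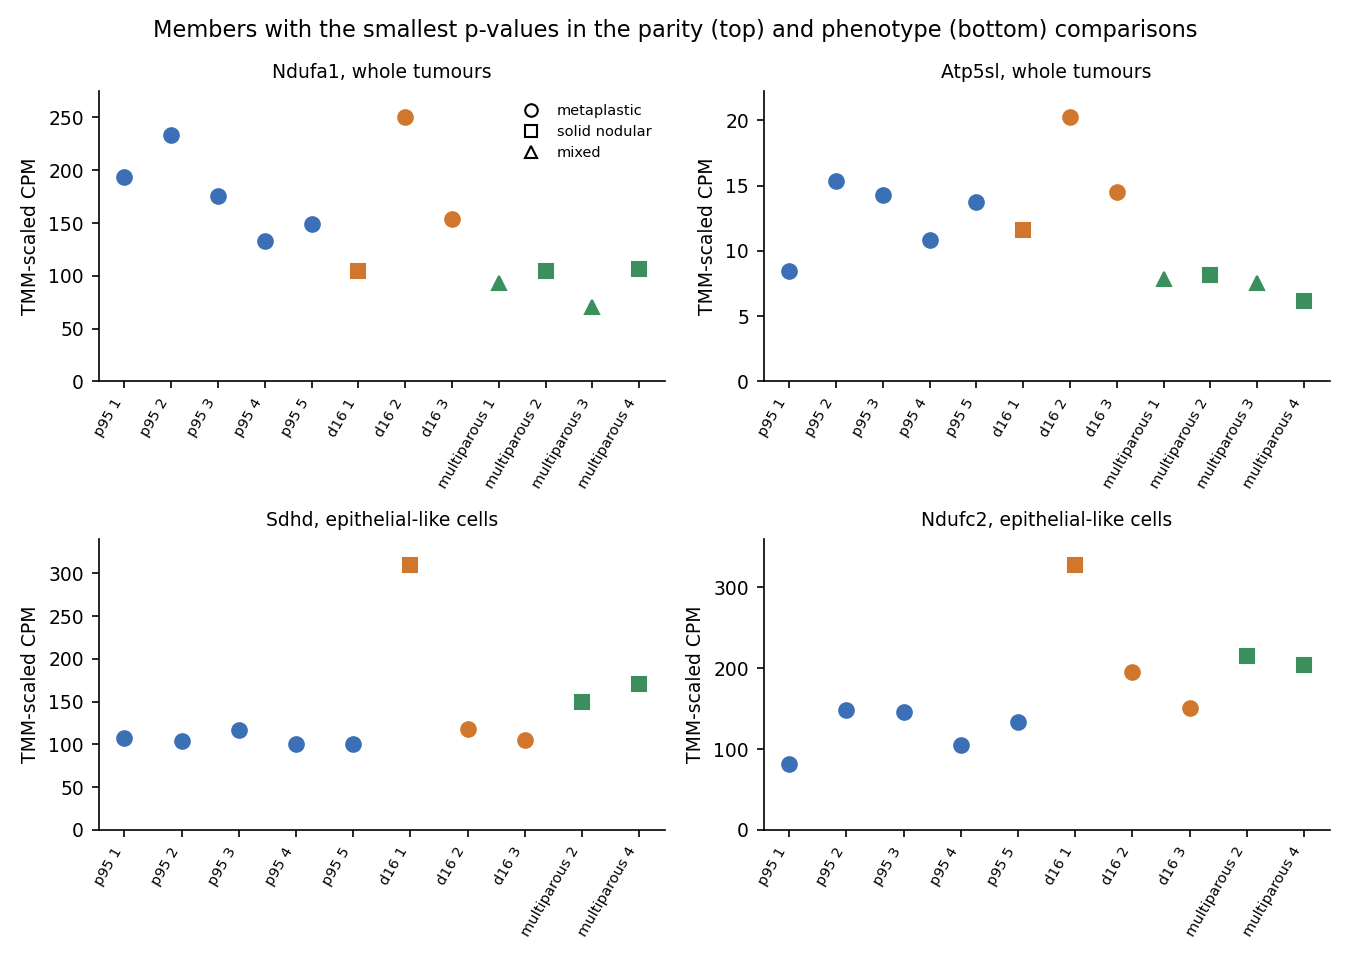
CPM of Ndufa1 and Atp5sl in whole tumours (12 tumours, by parity) and of Sdhd and Ndufc2 in epithelial-like cells (10 tumours, by growth pattern). Each point is 1 tumour and marker shapes give the growth pattern. Sdhd lies between 150 and 309 CPM in solid nodular tumours and at or below 118 CPM in metaplastic ones.

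The d16 (n = 3) and p95 tumours (n = 5) differ in the form of HER2, and d16 tumour 1 also in growth pattern. None of the 84 genes passed in edgeR in whole tumours, epithelial-like or macrophage-like cells (0 of 77, 0 of 76 and 0 of 64), where 0.0% of all genes passed in each. At an unadjusted p under 0.05 there were 5, 5 and 0, against 4.37%, 5.61% and 2.5% of all genes. DESeq2 passed 0 of them in each. The genes lay mostly higher in d16 tumours as a group, by a median of 0.36 in whole tumours (71 of 77 higher), against -0.02 for all genes, and 0.37 in epithelial-like cells (70 of 76), against 0.00. This did not hold for the summed share of d16 tumour 3. It was 1.39% in whole tumours, inside the p95 range of 1.18% to 1.85%. In epithelial-like cells it was 1.75%, inside the p95 range of 1.42% to 2.13%, while d16 tumours 1 and 2 stood at 2.67% and 2.76%. In macrophage-like cells the median was -0.06 (37 of 64 lower), against -0.02, and -0.27 without d16 tumour 2. By complex, 34 of 36 genes of complex I and 16 of 16 of complex V were higher in whole tumours. Layout as a covariate gave medians of 0.25 (whole tumours) and 0.27 (epithelial-like cells). Ndufs3, a core subunit of complex I, stood at 90.6, 71.0 and 35.2 CPM in epithelial-like cells of d16 tumours 1 to 3, against 41.1, 33.9, 25.2, 23.4 and 15.2 CPM in p95 tumours 1 to 5. Only d16 tumour 3 overlapped the p95 range (1.32 ± 0.40, edgeR adjusted p = 0.813). Ndufc2 and Sdha were the 2 of 76 genes whose groups did not overlap in epithelial-like cells, against 2.55% of all genes. In macrophage-like cells there was 1, Atp5a1, against 2.37%, and in whole tumours 0, against 1.93%.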

How the data were processed

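Single cells of 12 tumours were prepared with a ddSEQ isolator and the SureCell 3′ kit, per the labels. The deposited values are UMI counts per gene and cell, with several libraries of a tumour joined, per the labels' protocols. Per the submitters' processing notes, Seurat 3.0.2 and the build GRCm38 were used, while aligner, annotation and strand setting are not given in the sources used here. Cells with at least 200 genes were clustered in scanpy 1.11.5 (2000 variable genes without the 84 genes, 30 components, 15 neighbours, Leiden resolution 1.0) and named from marker lists, with the naming rule set after the clusters were seen. Doublets were scored and removed only in an alternative. Counts were summed per tumour and class (at least 20 cells) and tested with edgeR 4.0.16 (quasi-likelihood, TMM, filterByExpr) across all genes, with Benjamini-Hochberg adjustment at 0.05 and the tumour as a block between classes. The 84 genes, the lists and the comparisons were chosen with earlier results of these data known. Genes were named by smallest p, up to 6 that rose and 6 that fell per test, or the 5 of smallest p where fewer than 5 passed, plus complex II, core subunits, the tissue isoforms and the 3 highest and lowest levels. The text gives part of these. Names that lie outside this rule were chosen after their values were seen. Scripts were tested on simulated data. Alternatives were RLE factors, DESeq2 1.42.0, limma 3.58.1 voom, cell and gene filters, file layout as a covariate and leaving out tumours.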

Additional observations from a re-analysis of the deposited data

Results flagged for a closer look

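In 6 of 56 groups tested, 1 tumour lay far from the others of its group by Dixon's criterion, where chance gives about 1 in 20. In macrophage-like cells multiparous tumour 4 had 1.32% of UMIs on the 84 genes, apart from the other multiparous tumours. In whole tumours Ndufa4 at 606 CPM and Ndufc2 at 286 CPM in d16 tumour 1 lay apart from the other nulliparous tumours. Ndufs6 at 253 CPM and Ndufb7 at 346 CPM in d16 tumour 2 lay apart from the other metaplastic tumours, and Atp5c1 at 447 CPM in p95 tumour 1 from the other p95 tumours. The part of depth was not tested, and p95 tumour 1 and d16 tumour 1 had the lowest total counts.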

How the results depend on the processing

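Of the values for whole comparisons under alternatives, 490 kept their direction and stayed near the reported value, 16 moved and 2 reversed. With file layout as a covariate the parity medians were 0.040 (whole tumours) and 0.031 (epithelial-like cells), and 3 and 1 genes passed for growth pattern. DESeq2 passed 1 gene for parity in whole tumours and, for growth pattern, 1 each in whole tumours and epithelial-like cells. Shares of all genes that passed under the alternatives are not given here. In neutrophil-like cells 9 genes passed when cells were gated by marker UMIs, which left 3 tumours, and 28 to 48 when 1 tumour was left out. In dendritic-like cells 8 passed without the 5% of highest doublet scores, and 2 to 7 when 1 tumour was left out. The growth pattern median in macrophage-like cells ran from -0.28 to -0.029 and the HER2 form median from -0.27 to -0.00066 when 1 tumour was left out. Of the values for named genes, 21 lost and 9 gained a call, and 0 reversed. With the replicate block on title numbers, limma voom passed 0 genes in every group test, and the parity median in whole tumours was -0.20 with the block and -0.18 without. Deviations of the pairs that share a number correlated at 0.397 and 0.286 over 3926 genes, and with 2 pairs the samples share only a number. Neutrophil-like cells with at least 500 genes and gated dendritic-like cells were not run, as too few tumours remained.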
